A study of Mus musculus with 22 samples.

Results

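The immunoglobulin heavy chain locus (Igh) of the mouse lies near the far end of chromosome 12, and its copy number was followed here probe by probe in thymocyte DNA of 22 mice that lack Atm. Its members are the 283 probes, of 235402 on the array, whose midpoint lies on chromosome 12 between 110.71 and 113.82 Mb in the coordinates of the array files, of which no source used here gives the genome build. The probes were taken by position alone, while the locus itself was picked with earlier results of these data known. The groups were thymocyte DNA of 8 Atm deficient mice with a T-cell lymphoma and of 14 Atm deficient mice described as macroscopically without findings. Each mouse had 1 array, on which its Cy5-labelled DNA competed with Cy3-labelled DNA of wildtype thymocytes. The mice were untreated, the labels give no strain, age or altered part of Atm, and the wildtype DNA was the common comparison of both groups. Every value is a log2 ratio, Atm deficient to wildtype, centred on the median of the autosomal probes of each array. With all cells of both DNAs in their usual 2 copies the ratio is 0. Loss of 1 copy in every cell of the Atm deficient DNA alone would give -1. At loci that thymocytes rearrange, the wildtype DNA can itself have lost copies, so a ratio there is not an absolute copy number. A ratio nearer to 0 can be a loss in fewer cells or a compressed ratio, and these cannot be told apart in bulk DNA.

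The Igh locus holds the gene segments from which B cells assemble the heavy chain of an antibody. The RAG recombinase first joins a D segment to a J segment, which also happens in developing thymocytes, and then joins a V segment to that DJ unit, a step that is known to be kept mostly to B cells. Atm signals DNA double-strand breaks and holds broken ends together during this process, and T-cell lymphomas of mice without Atm are known for translocations that join the Tcra/Tcrd locus on chromosome 14 to chromosome 12. In the RefSeq gene order the locus runs past Tmem121, the constant genes Igha to Ighm, the J segments, the D segments and Adam6b and Adam6a, then past the V segments to Zfp386 and Vipr2. The array files name 271 of the 283 probes with 11 names, of which LOC238447, described as similar to a heavy chain variable region, takes 138, and they name no constant, D or J gene. The first 0.4 Mb, with 46 probes, were therefore taken as the constant and D-J end, and the other 2.71 Mb, with 237 probes, as the V part, cut into a near, a middle and a far section of 0.903 Mb with 103, 79 and 55 probes. No probe lies in a gap of the far section, between chr12:113323095 and chr12:113591154.

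The copy number of several arrays changed level at 1 place inside the first 0.4 Mb, between neighbouring probes about 5.6 kb apart, and the probes on both sides of it are shown because the main breaks and the deepest deletions turn on them. The strand of the printed letters is not given in the files. The last 2 probes before the step, the 5 probes of the interval in which deletions were deepest and the next probe were as follows.
Probe at chr12:110939273-110939332: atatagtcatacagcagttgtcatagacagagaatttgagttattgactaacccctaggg
Probe at chr12:110947649-110947708: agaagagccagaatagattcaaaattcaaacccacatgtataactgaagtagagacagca
Probe at chr12:110953308-110953367: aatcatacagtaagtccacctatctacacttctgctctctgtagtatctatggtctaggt
Probe at chr12:110958969-110959027: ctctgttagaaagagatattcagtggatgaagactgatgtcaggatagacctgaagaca
Probe at chr12:110966613-110966671: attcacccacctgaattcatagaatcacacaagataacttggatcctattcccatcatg
Probe at chr12:110977688-110977740: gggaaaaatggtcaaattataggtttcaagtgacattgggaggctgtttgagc
Probe at chr12:110996617-110996673: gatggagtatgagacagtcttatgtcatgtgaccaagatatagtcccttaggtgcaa
Probe at chr12:111002109-111002168: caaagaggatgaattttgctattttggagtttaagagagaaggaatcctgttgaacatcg

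A further 3 probes of the V part stand for a second set that limits what can be read there, since their wildtype channel was barely above background, and capitals mark the only uninterrupted alternating repeat of 10 or more bases among the printed probes.
Probe at chr12:112554587-112554646: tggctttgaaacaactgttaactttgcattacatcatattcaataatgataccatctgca
Probe at chr12:112572341-112572400: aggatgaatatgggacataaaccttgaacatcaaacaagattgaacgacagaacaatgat
Probe at chr12:113323036-113323095: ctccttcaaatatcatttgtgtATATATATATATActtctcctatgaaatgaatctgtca

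The targeted gene gave no check of direction. Of 12 Atm probes, the one with the highest median, at chr9:53461029-53461088, had ratios of 0.95 to 1.32 in the 8 lymphomas and of 0.67 to 1.69 in 9 arrays of mice without lymphoma, which is above wildtype and not below it. The other 11 probes had medians of -0.05 to 0.27 in lymphomas and -0.03 to 0.25 in mice without lymphoma. At the probe with the highest median, no-lymphoma mouse 5 had 0.44 and no-lymphoma mouse 6 had 0.08. Arrays carrying the labels of no-lymphoma mice 1, 3 and 4 had -1.08, -0.72 and -0.63, unlike all others, and these 3 form 1 of the 6 scan days in the file headers. Of 231 pairs of arrays, 8 correlated below -0.3 over the autosomal probes, with the lowest at -0.48. Because dyes are stated in the labels for each array, that direction was kept. The V part level, the window count and the contrasts were also computed without these 3 arrays and with their sign turned, and the other results were not. Probe-to-probe noise was 0.15 to 0.37 in lymphomas and 0.13 to 0.55 in mice without lymphoma.

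**Figure D1:**
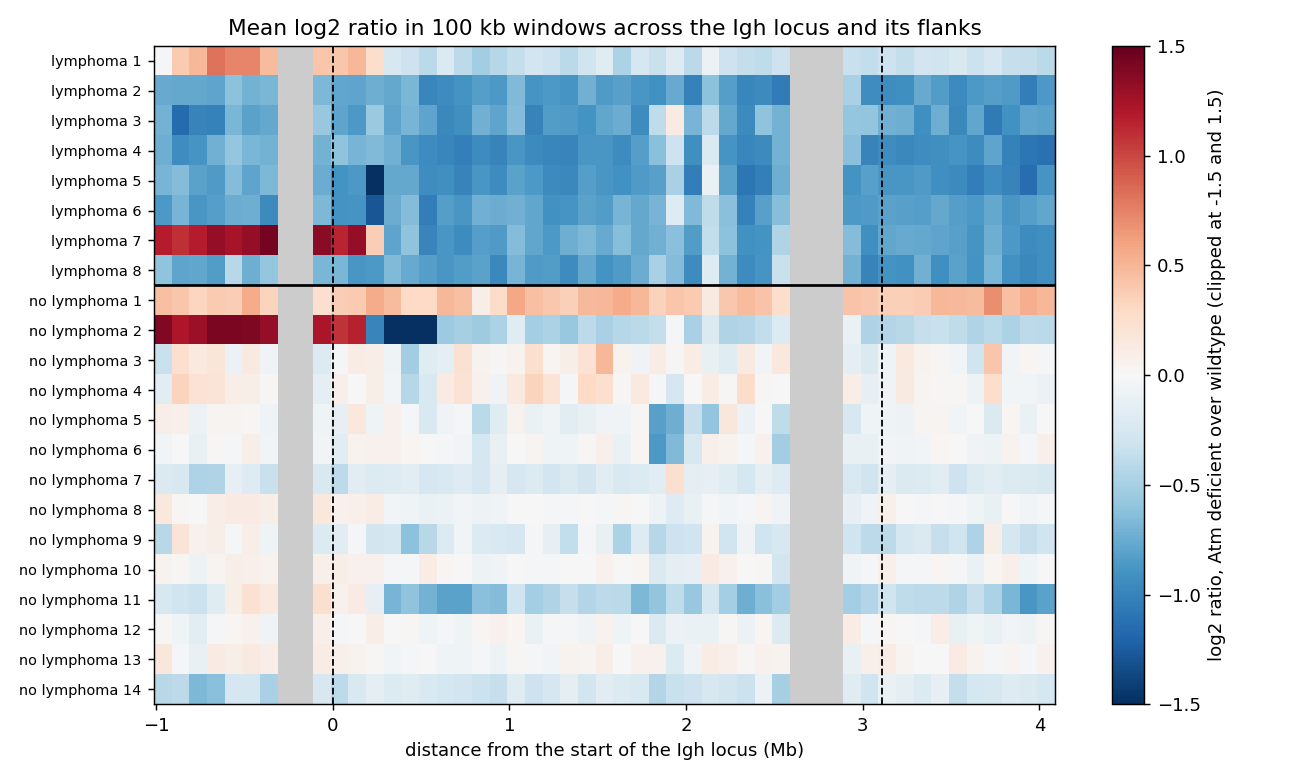
Mean log2 ratio (colour, clipped at -1.5 and 1.5) in 100 kb windows, by distance from the start of the Igh locus in Mb, with the 8 lymphomas above the 14 mice without lymphoma. Dashed lines are the ends of the locus and grey marks windows with fewer than 3 probes. The V part is mostly blue in all 8 lymphomas, with lymphoma mouse 3 at 0.13 in the window from 112.6 to 112.7 Mb. Lymphoma mice 1 and 7 and no-lymphoma mouse 2 turn from red to blue inside the locus.

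With the deposited processed intensity, the V part of Igh was at a reduced ratio in all 8 lymphomas. Its mean ratio per array was lowest at -0.87, had a median of -0.78 and was highest at -0.34 in lymphomas, against -0.54, -0.08 and 0.39 in mice without lymphoma. Of the lymphomas 7 lay below every mouse without lymphoma, and lymphoma mouse 1, at -0.34, lay above no-lymphoma mouse 11 at -0.54 and no-lymphoma mouse 2 at -0.52, so the groups overlapped. The mean was -0.75 ± 0.17 in lymphomas (SD, n = 8) and -0.12 ± 0.24 in mice without lymphoma (SD, n = 14), a difference of -0.63. The difference was -0.55 without the 3 arrays named above and -0.56 with their sign turned, alternatives chosen after seeing the data. Of the mice without lymphoma, 3 were at or below -0.25, namely 2, 11 and 14 at -0.52, -0.54 and -0.26. The array labelled no-lymphoma mouse 1 had the highest ratio, 0.39, which is a ratio of -0.39 if its sign is turned, a level close to that of lymphoma mouse 1. With normexp background correction of the raw spot signals instead, the V part levels of lymphoma mice 5, 7 and 8 were -0.16, -0.15 and -0.08. These 3, and lymphoma mouse 1 at -0.33, then lay above no-lymphoma mouse 2 at -0.45.

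The near, middle and far V sections had similar ratios within each group. They averaged -0.79 ± 0.18, -0.68 ± 0.16 and -0.77 ± 0.18 in lymphomas (SD, n = 8). In mice without lymphoma they averaged -0.13 ± 0.27, -0.12 ± 0.23 and -0.11 ± 0.22 (SD, n = 14). With probes of a dark wildtype channel left out, an alternative chosen after seeing the data, the group differences of the sections were -0.69, -0.65 and -0.70.

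The constant and D-J end spread far more than the V part among lymphomas. Its ratio was lowest at -1.04, had a median of -0.75 and was highest at 0.41 in lymphomas, against -0.91, 0.00 and 0.45 in mice without lymphoma. There 6 lymphomas lay at or below -0.25, while lymphoma mice 1 and 7 had raised ratios of 0.20 and 0.41, and the groups overlapped. The mean was -0.54 ± 0.54 in lymphomas (SD, n = 8) and -0.09 ± 0.30 in mice without lymphoma (SD, n = 14). The 1 Mb before the locus showed the same 2 lymphomas on the other side of 0, at 0.58 and 1.30, against -0.80 to -0.66 in the other 6. In mice without lymphoma it reached 1.33 in mouse 2 and 0.37 in the array labelled mouse 1 and lay between -0.40 and 0.10 in the other 12. The 1 Mb beyond the locus averaged -0.81 ± 0.21 in lymphomas (SD, n = 8) and -0.09 ± 0.24 in mice without lymphoma (SD, n = 14), with 8 and 3 arrays at or below -0.25.

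**Figure D2:**
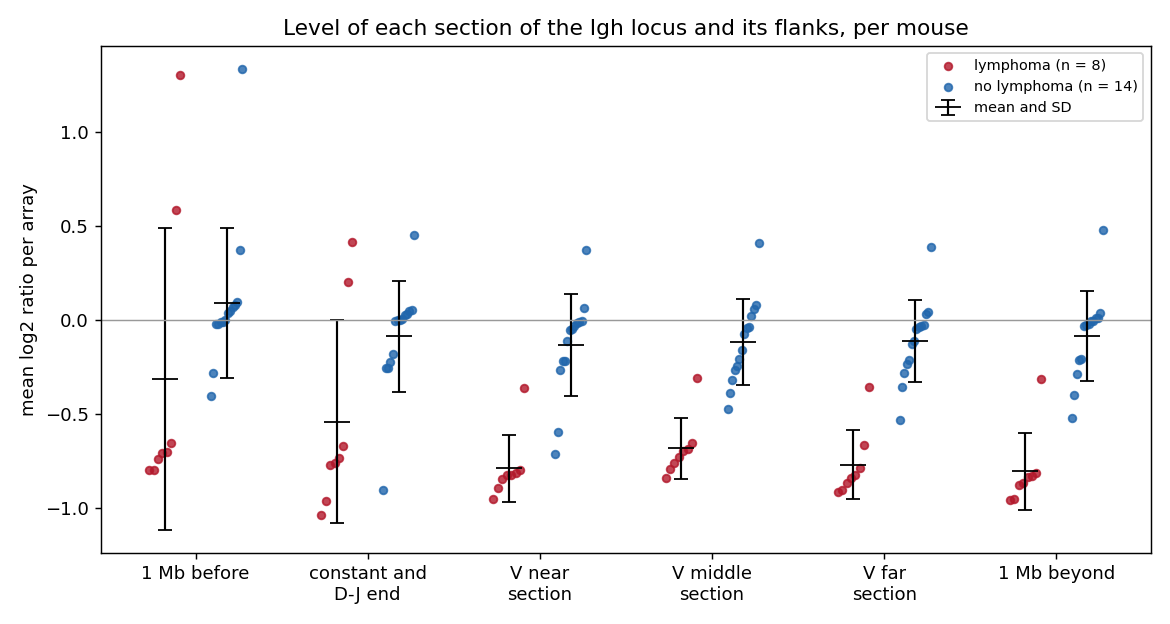
Mean log2 ratio per mouse (points) in the 1 Mb before the locus, the 4 sections of the locus and the 1 Mb beyond, with mean and SD as bars and lymphoma left of no lymphoma. Lymphomas split on both sides of 0 in the first 2 columns and lie between -0.95 and -0.31 in the 3 V columns.

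Windows of 100 kb were compared between the groups with limma across all 22868 autosomal windows. Of the 28 windows of the locus, 20 were lower in lymphomas and 0 higher at an adjusted p under 0.05, against 9.02% of all windows lower. The 4 windows of the constant and D-J end were not among the 20, with limma adjusted p of 0.177, 0.12, 0.0514 and 0.546 for differences of -0.42, -0.52, -0.58 and -0.33. The windows with the smallest p lay in the V part. The window at 112.0 to 112.1 Mb averaged -0.83 ± 0.19 in lymphomas (SD, n = 8) and -0.10 ± 0.23 in mice without lymphoma (SD, n = 14), a limma difference of -0.73 ± 0.09 (SE, adjusted p = 2.09e-05). The window at 113.0 to 113.1 Mb had the lowest lymphoma mean of the locus, -0.90 ± 0.23, against -0.08 ± 0.30 in mice without lymphoma (SD, n = 8 and 14, limma adjusted p = 4.36e-05). In the last window of the constant and D-J end, at 111.0 to 111.1 Mb, and in the next, which did not pass either, no-lymphoma mouse 2 reached -4.07 and -2.18. The other windows that did not pass begin at 112.5, 112.6 and 112.8 Mb and hold 4, 2 and 1 of the dark probes described below. With scan day as a block 18 windows passed, against 1.05% of all windows lower. Within the scan day of lymphoma mice 2 and 5, which also holds 2 mice without lymphoma, the count was 21, against 1.5% of all. Without the 3 arrays below 0 at that Atm probe 19 windows passed, against 4.32% of all. With their sign turned 20 passed, against 7.51% of all. In each of the 3 other scan days with both groups, 1 group had a single array, so only the effect size is given. The median differences of the 28 windows there were -0.22, -0.45 and -0.74, against -0.02, -0.01 and -0.04 over all windows. The first of these days holds no-lymphoma mouse 2 as its only mouse without lymphoma.

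Against wildtype DNA, a test of each group's mean ratio against 0 called 25 of the 28 windows lower in lymphomas and 1 in mice without lymphoma at an adjusted limma p under 0.05 and a mean at or below -0.25. Over all windows these shares were 4.46% and 0.0394%. The window called in mice without lymphoma, at 112.5 to 112.6 Mb, averaged -0.26 ± 0.35 (SD, n = 14). It holds 4 dark probes, and with spots not well above background left out it was not called.

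Mouse by mouse, a loss was counted where the segment covering the middle of a window lay at or below -0.25. Losses covered 4 to 8 lymphomas and 0 to 3 mice without lymphoma in the windows of the locus. Losses were more frequent in lymphomas in 25 of 28 windows by Fisher's exact test adjusted over all windows, against 0.306% of all windows. In the windows from 111.0 to 112.6 Mb the counts were 8 of 8 lymphomas and 2 of 14 mice without lymphoma (Fisher's exact p = 0.000141, adjusted 0.0273). In the 3 windows from 110.7 to 111.0 Mb they were 6 of 8 and 0 of 14 (Fisher's exact p = 0.000375, adjusted 0.0284). The middle of the last of these falls between chr12:110947708 and chr12:110953308, where several arrays change level, and was counted by the level before. No-lymphoma mouse 2 averaged -0.99 over that window and was not counted as a loss there, so its count depends on where the middle falls. The same holds at 112.5 to 112.6 Mb, where no-lymphoma mice 5 and 6 averaged -0.82 and -0.86 and were not counted. Their segments of -1.61 and -1.56 begin at chr12:112554587, after the middle of that window. With losses counted at -0.35, 3 windows were called, against 0.197% of all windows.

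Single probes gave the same order. Of the 283 probes, 176 were lower in lymphomas and 0 higher by limma over all 220065 autosomal probes, against 0.818% of all probes lower. With normexp background correction 69 probes were lower, against 0.222% of all probes, and with scan day as a block 106, against 0.2499%. All 176 lay in the V part, 75 of 103 in the near, 59 of 79 in the middle and 42 of 55 in the far section, and 0 of 46 lay in the constant and D-J end. The median difference of the 283 probes was -0.70, against 0.00 over all probes. The probe of the V part at chr12:113043605-113043664 had the largest difference there, with -0.95 ± 0.34 in lymphomas (SD, n = 8) and 0.12 ± 0.65 in mice without lymphoma (SD, n = 14). The lowest lymphoma mean in the V part was -1.21 ± 0.44, at chr12:111519853-111519912, where mice without lymphoma had -0.49 ± 0.47 (SD, n = 8 and 14).

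The step inside the first 0.4 Mb was read array by array from segments of at least 5 probes. In lymphoma mouse 7 the level was 1.27 over 182 probes up to chr12:110947708 and -0.78 over the 192 probes after chr12:110953308, a change of -2.04. With normexp background correction of the raw spot signals, the change at the same probes was -0.55, and why it was smaller was not tested. In lymphoma mouse 1 the same pair of probes parted 0.46 from -0.34, a change of -0.80. In no-lymphoma mouse 2 they parted 1.07 from a deep deletion. No-lymphoma mouse 11 changed level 1 probe later, with 0.15 before chr12:110953367 and -0.69 after chr12:110958969. No-lymphoma mouse 10 had a small step of -0.07 at the same pair of probes as no-lymphoma mouse 11. No-lymphoma mouse 8 had one of -0.12 at the far end of the interval, between chr12:110996673 and chr12:111002109. Away from the interval, lymphoma mouse 4 changed by -0.24 between chr12:111073395 and chr12:111078685. Lymphoma mouse 8 changed by -0.18 between chr12:110765766 and chr12:110778068. Lymphoma mouse 5 was already reduced before the step, at -0.78, and its break there opened a short deep deletion. With normexp no break was found there in lymphoma mouse 5, and that of no-lymphoma mouse 11 lay at chr12:111038896 with a change of -0.17.

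The 28 probes of the locus before the step and the 237 of the V part can be set against each other in every array. The V part minus the probes before the step was lowest at -1.94, had a median of -0.06 and was highest at 0.10 in lymphomas, against -1.58, -0.06 and 0.09 in mice without lymphoma. The groups overlapped throughout, and the large steps were those of lymphoma mice 7 and 1 at -1.94 and -0.80 and of no-lymphoma mice 2 and 11 at -1.58 and -0.64. The other 6 lymphomas, at -0.87 to -0.64 before the step, carried the reduced ratio on both sides. In the 100 kb window from 110.9 to 111.0 Mb, chosen after seeing the breaks, 7 arrays had a break, namely 3 lymphomas and 4 mice without lymphoma. They include the steps of -0.07 and -0.12. Of all windows 0.197% had breaks in as many arrays and 19.7% had a break in any. With normexp 3 arrays had a break in this window, lymphoma mice 1 and 7 with no-lymphoma mouse 2, and 1.87% of all windows had breaks in as many.

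**Figure D3:**
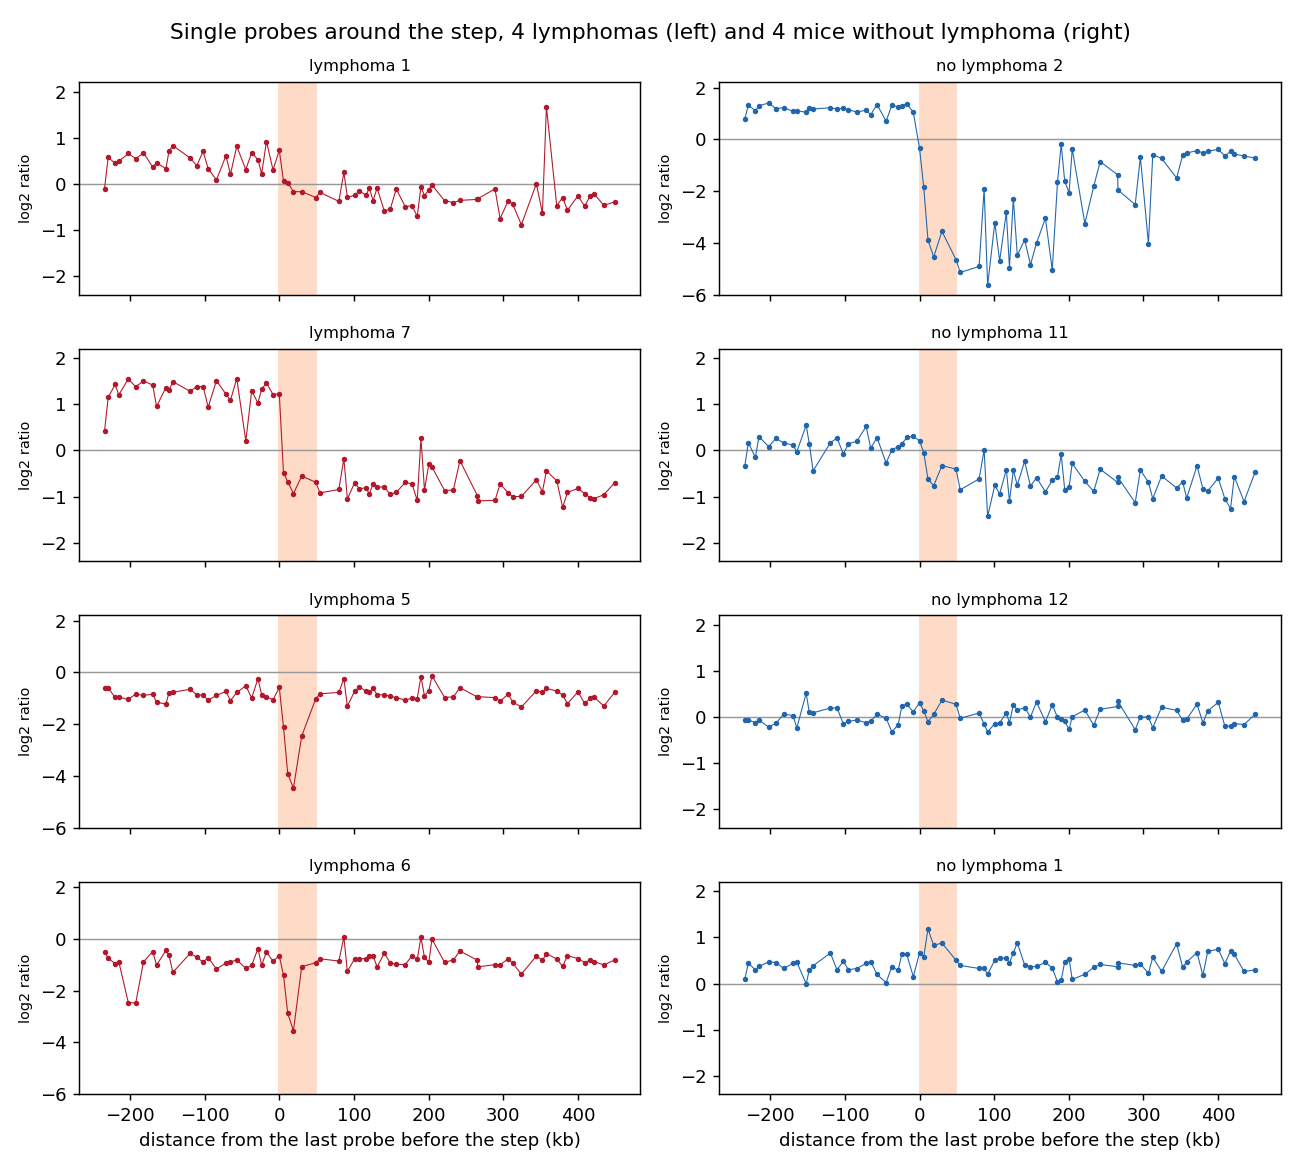
Log2 ratio of single probes, by distance in kb from the last probe before the step, for lymphoma mice 1, 7, 5, 6 (left) and for no-lymphoma mice 2, 11, 12 above the array labelled no-lymphoma mouse 1 (right), without dark probes. The shaded interval of 5 probes holds the drop in mice 1, 7, 2 and 11 and the low points of lymphoma mice 5 and 6, whose vertical axes, like that of no-lymphoma mouse 2, reach -6.

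Of 11 deep segments, those with a mean at or below -1, the interval holds 1 in lymphoma mouse 5 and 1 in no-lymphoma mouse 2. With normexp, an alternative chosen after seeing the data, there were 2 deep segments, both in no-lymphoma mouse 2, and the mean over the interval was -0.62 in lymphoma mouse 5, -0.98 in lymphoma mouse 6 and -1.23 in no-lymphoma mouse 2. In lymphoma mouse 5 the 5 probes at chr12:110953308-110996673 averaged -2.79, and their single ratios were -2.11, -3.91, -4.47, -2.46 and -1.01, with 1 of the 5 spots not well above background in the Atm deficient channel. In lymphoma mouse 6 the same 5 probes read -1.40, -2.87, -3.55, -1.07 and -0.92. The fall was thus deepest at the same probe in both, chr12:110966613-110966671, and had ended by the sixth, chr12:111002109-111002168, at -0.83 and -0.77. The segment of lymphoma mouse 6 was called only with segments of at least 3 probes, at -2.61 over 3 probes, or without dark probes, at -1.96 over 5. Lymphoma mouse 8 averaged -1.11 over the 5 probes, against -0.79 in its V part, and no segment was called there.

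In no-lymphoma mouse 2 neighbouring deep segments, 5 in number with 38 probes, covered 347 kb when joined. Its 5 interval probes read -1.86, -3.90, -4.55, -3.56 and -4.66, and the ratio stayed low after them. The segments that followed averaged -4.17 over 5 probes, -4.01 over 10 up to chr12:111125518, -1.73 over 13 up to chr12:111254418 and -1.003 over 5 up to chr12:111300279, after which the V part lay at -0.47. None of the 5 interval probes was dark in either channel of this array. Over the interval, lymphomas had a lowest mean of -2.79, a median of -0.68 and a highest of -0.11, against -3.70, 0.02 and 0.80 in mice without lymphoma. The highest, 0.80, was the array labelled no-lymphoma mouse 1, where the V part was at 0.39, so with its sign turned its interval also lies below its V part, at -0.80.

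Few single probes were this low elsewhere. Over the whole locus and leaving dark probes aside, ratios at or below -2 were seen at 22 probes in no-lymphoma mouse 2, 5 in lymphoma mouse 6, 4 in lymphoma mouse 5, 2 in lymphoma mouse 8 and 1 each in lymphoma mouse 2 and no-lymphoma mouse 5, and at no probe of the other 16 arrays. In lymphoma mouse 6, 2 neighbouring probes of the constant end, chr12:110745396-110745455 and chr12:110755338-110755394, read -2.46 and -2.47. The remaining deep segments of the rule were those in the V part of lymphoma mouse 4, at chr12:112648549-112789348 and -1.03, and of lymphoma mouse 5, at chr12:112648549-112799237 and over the 346 kb of chr12:112857418-113203093, both at -1.02, and those of no-lymphoma mice 5 and 6 at chr12:112554587-112608314 and chr12:112554587-112591188, at -1.61 and -1.56. In these 2 arrays 5 of 7 and 3 of 6 probes were not well above background in the Atm deficient channel. Without dark probes, none of these V segments was called in lymphoma mice 4 and 5 or in no-lymphoma mice 5 and 6. The whole V part averaged -0.87 in lymphoma mouse 4 and -0.86 in lymphoma mouse 5.

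Where the loss that reaches the chromosome end begins was read by walking back from the last probe. Such a loss was found in 8 of 8 lymphomas and 2 of 14 mice without lymphoma, and with normexp in 6 and 1. Its start lay inside the locus in 7 of the 8 lymphomas and in both mice without lymphoma that had the loss. Fisher's exact p over all 22 mice was 0.00149, which counts mice with no loss as having no start inside and so does not test where the loss begins. In 5 of those 7, lymphoma mice 3, 4, 5, 6 and 8, the walk ended at short stretches of 6 to 10 probes in the V part with a mean above -0.25, so that the start fell at chr12:112648549 or chr12:112857418. With stretches of 10 or fewer probes passed over, an alternative chosen after seeing the data, the start lay inside the locus in 2 lymphomas (mice 7 and 1) and 2 mice without lymphoma (mice 11 and 2). In the other 6 lymphomas it then lay before the locus, at chr12:109705998 in mouse 8 and between chr12:97482779 and chr12:103361569 in mice 2 to 6.

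Many probes of these stretches carry little signal. The stretch at chr12:112554587-112633616 holds 10 probes, of which 6 are dark as defined next and 1 other had a lymphoma mean above -0.25. The stretch at chr12:112799178-112852109 holds 7 probes, of which 2 are dark and 3 others had a lymphoma mean above -0.25. In 17 of 283 probes, 6.01%, the wildtype channel was not well above background in 4 or more arrays, against 0.249% of autosomal probes. Their wildtype signals ranked between the 0.0793 and the 0.912 percentile of autosomal probes, their median GC content was 33.3% against 36.7% for the locus, and 16 of them lie in the V part. These 16 had lymphoma means of -0.97 to 0.20 with a median of -0.39, and means of -0.72 to 0.28 with a median of -0.46 in mice without lymphoma. Among the 221 other V probes, 205 had a lymphoma mean at or below -0.5 and the median was -0.81, against -0.09 in mice without lymphoma. Only 11 of the 221 had a lymphoma mean above -0.25, and 5 of these lie in the middle section.

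Brightness did not mark all of these 11. The probe at chr12:111137460-111137519 ranked at the 99.99 percentile and averaged -0.01 ± 0.14 in lymphomas and -0.10 ± 0.17 in mice without lymphoma (SD, n = 8 and 14). The highest of those never dark in any array, chr12:112633558-112633616, ranked at the 12.2 percentile and averaged 0.19 ± 0.30 in lymphomas and 0.12 ± 0.23 in mice without lymphoma (SD, n = 8 and 14). Whether such probes also bind copies elsewhere in the genome was not tested, as no genome was used. The heptamer CACAGTG of recombination signals, searched on both strands, was found in 2 of 283 probes, 0.707%, and in 0.887% of autosomal probes, which describes the letters of the probes only.

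**Figure D4:**
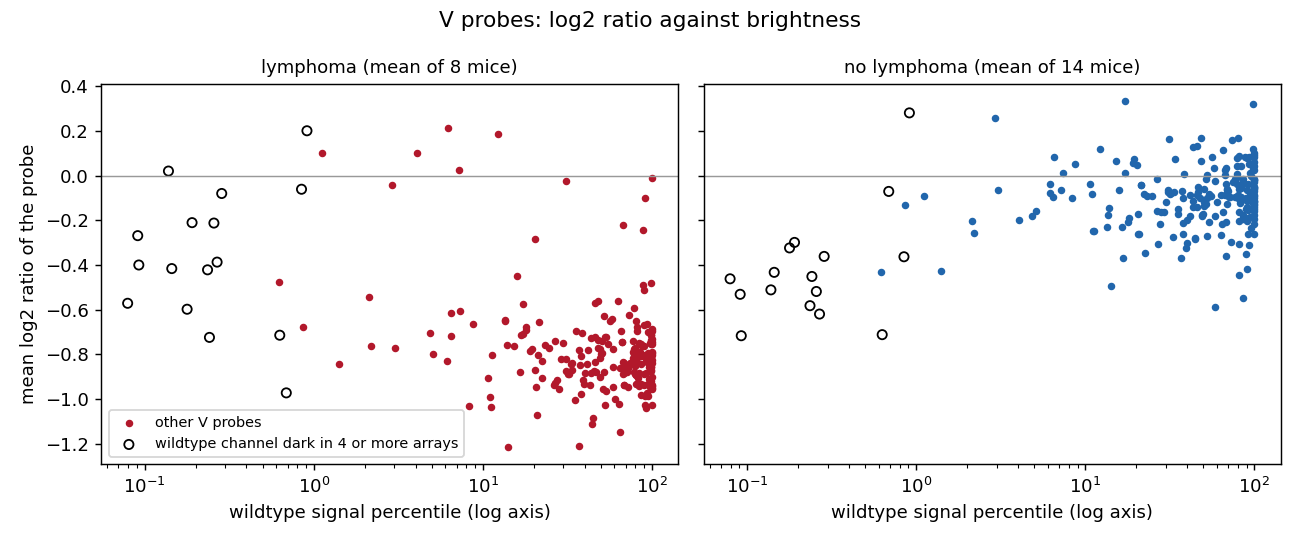
Mean log2 ratio of each of the 237 V probes against the rank of its wildtype signal among autosomal probes (percentile, log axis), lymphoma left and no lymphoma right, with open circles for probes dark in 4 or more arrays. In lymphomas most filled points lie near -0.81, while the open circles lie between -0.97 and 0.20.

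Within each array 3 contrasts were formed and compared by exact two-sided permutation tests over the 319770 splits of 22 mice, adjusted over the 3. The V part minus the constant and D-J end averaged -0.21 ± 0.46 in lymphomas and -0.04 ± 0.16 in mice without lymphoma (SD, n = 8 and 14, exact p = 0.217, adjusted 0.325). The locus minus the 1 Mb before averaged -0.40 ± 0.66 in lymphomas and -0.21 ± 0.52 in mice without lymphoma (SD, n = 8 and 14, exact p = 0.486, adjusted 0.486). Neither difference passed. Lymphoma mouse 7, at -1.18 and -1.88, and no-lymphoma mouse 2, at 0.38 and -1.92, were the most extreme mice of their groups in these 2 contrasts.

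By the mean of all probes, the locus was less reduced than the 1 Mb beyond it in lymphomas. The locus minus the 1 Mb beyond was lowest at 0.01 and highest at 0.26 in lymphomas, above 0 in 8 of 8, against -0.19 and 0.05 in mice without lymphoma, where it was below 0 in 9 of 14. With dark probes left out, lymphoma mouse 6 fell below 0, at -0.01. With all probes the means were 0.09 ± 0.08 in lymphomas and -0.03 ± 0.07 in mice without lymphoma (SD, n = 8 and 14), a difference of 0.12 (exact permutation p = 0.000231, adjusted 0.000694). With exchanges only within scan days it was 0.17, with the smallest p of 288 arrangements (exact p = 0.00347, adjusted 0.0104), and within the 4 scan days that hold both groups it was 0.28, 0.15, 0.08 and 0.17. It was 0.08 without dark probes (adjusted exact p = 0.00765), 0.0199 with the median of the probes in place of the mean (adjusted exact p = 0.352) and 0.00624 with normexp background correction (adjusted exact p = 0.825). Without the 3 arrays below 0 at the Atm probe it was 0.13 (adjusted exact p = 0.000913), and with their sign turned 0.12 (adjusted exact p = 0.00171). It therefore did not pass under every setting, and the cause was not tested. Highest among lymphomas was mouse 7, whose raised segment ends inside the locus.

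Named neighbours of Igh followed the same division. Of the 18 listed genes around the locus 12 had 3 or more probes under their names and were tested, and 10 were lower in lymphomas by limma over 12991 genes, 0 were higher and the median difference was -0.74, against 2.51% of genes lower and a median of 0.05 over all genes. Neighbouring genes share the losses of a mouse, so these 10 are not separate observations. Zfp386, a zinc finger gene next to the last V segments, averaged -0.82 ± 0.19 in lymphomas and -0.02 ± 0.28 in mice without lymphoma (SD, n = 8 and 14, limma adjusted p = 3.03e-05). Its 3 probes, and 2 of the 10 probes of Vipr2, are members of the locus and were counted in the far V section. The values of Zfp386 are therefore not separate from those of the locus, and those of Vipr2 only in part. Vipr2, a receptor for vasoactive intestinal peptide, averaged -0.79 ± 0.21 in lymphomas and -0.05 ± 0.20 in mice without lymphoma (SD, n = 8 and 14, limma adjusted p = 1.9e-05). On the constant side Tmem121 had 1 probe and was not tested as a gene, and the 2 genes tested did not pass, Akt1, a kinase of growth factor signalling, at -0.27 ± 0.79 in lymphomas and 0.09 ± 0.39 in mice without lymphoma (SD, n = 8 and 14, limma adjusted p = 0.335) and Mta1, a subunit of a chromatin remodelling complex, at -0.34 ± 0.87 and 0.11 ± 0.35 in the same order (limma adjusted p = 0.244).

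Levels at the other antigen receptor loci were read the same way, with no test between loci. The Igk light chain locus, which B cells rearrange, averaged -0.11 ± 0.06 in lymphomas and -0.06 ± 0.08 in mice without lymphoma (SD, n = 8 and 14), with ranges of -0.20 to -0.05 and -0.19 to 0.07 that overlap. The Igl light chain locus averaged 0.03 ± 0.14 in lymphomas and -0.01 ± 0.03 in mice without lymphoma (SD, n = 8 and 14). Among the T-cell receptor loci, Tcra/Tcrd averaged 1.10 ± 0.88 in lymphomas and -0.24 ± 0.30 in mice without lymphoma, Tcrb averaged -0.43 ± 0.81 and -0.23 ± 0.33, and Tcrg averaged -0.18 ± 0.31 and -0.12 ± 0.25 (SD, n = 8 and 14 each, lymphoma before no lymphoma). Tcrb ranged between -1.73 and 0.64 in lymphomas, with -1.73 in mouse 2 and -1.44 in mouse 5, and between -0.59 and 0.47 in mice without lymphoma. Tcrg ranged between -0.88, in mouse 2, and 0.07 in lymphomas and between -0.36 and 0.47 in mice without lymphoma. Lymphoma mouse 7, with the raised end of Igh, had 1.499 at Tcra/Tcrd. Lymphoma mouse 1 and no-lymphoma mice 2 and 11, whose Igh level also turns at or next to the step, had -0.30, -1.03 and -0.08. Lymphoma mice 2, 3, 4, 5, 6 and 8, without a raised end of Igh, had 2.18, 1.31, 1.49, 1.80, 0.92 and -0.10. How receptor levels bear on the Igh ratios was not tested. Of 20 listed genes of V(D)J recombination and end joining 11 had 3 or more probes. Of these 1 was higher and 1 lower in lymphomas by limma, against 6.67% of genes higher and 2.51% lower, namely Xrcc6, the Ku70 end-binding protein, at 0.64 ± 0.21 in lymphomas and 0.18 ± 0.20 in mice without lymphoma (SD, n = 8 and 14, adjusted p = 0.0008), and Xrcc4, a ligase partner, at -0.14 ± 0.08 in lymphomas and -0.03 ± 0.05 in mice without lymphoma (SD, n = 8 and 14, adjusted p = 0.0262).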

How the data were processed

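Thymocyte DNA of 22 mice, 8 with lymphoma and 14 without, was measured on 2-colour arrays of 60-base or shorter probes. The deposited intensity of each spot had its background subtracted and its dyes normalised by the authors, who ran the CGH-v4_91 protocol of Feature Extraction, version 9.1.3.1 per the file headers and 9.1 per the submitters' processing notes. The deposited log ratio is log10 of red over green, per the file headers, and served as an alternative. Log2 ratios were computed from the deposited processed intensity, without spots that carry an outlier flag (3 to 111 per array), averaged per probe and centred on the autosomal median. Each mouse is 1 array, so the number of arrays limits precision.

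Members and lists were chosen with earlier results of these data known. Probes were averaged over 100 kb windows with at least 3 probes and tested with limma 3.58.1 (R 4.3.3) with Benjamini-Hochberg adjustment, a fit tested on simulated data. Segments came from optimal partitioning (penalty factor 3, at least 5 probes), and exact permutation and Fisher tests from Python 3.11.15 with scipy 1.17.1. Named windows and probes were those with the smallest and largest p, the largest difference and the highest and lowest mean. Breaks and deep deletions were read per array, and not every break in the V part is named here. Alternatives covered background correction (normexp, offset 50, on median spot signals, which all files hold), centring, dim spots, window size, scan day, sign, border, flank length, thresholds and left-out arrays. RefSeq names come from GRCm38.p6, with no coordinates taken.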

Additional observations from a re-analysis of the deposited data

Results flagged for a closer look

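Of 14 levels and contrasts examined among the 8 lymphomas, 8 had a lowest or highest mouse far from the other 7, where chance gives about 1 in 20. Lymphoma mouse 1 stood above the others in the V part at -0.34, in its near, middle and far sections at -0.36, -0.31 and -0.36, and in the 1 Mb beyond the locus at -0.31. These values share probes and neighbours, so they are 1 observation. Lymphoma mouse 7 stood below the others in the locus minus the 1 Mb before, at -1.88, and in the V part minus the probes before the step, at -1.94. It stood above them in the locus minus the 1 Mb beyond, at 0.26.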

How the results depend on the processing

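No paired analysis was possible because the labels give the mice no shared replicate numbers. The 20 windows lower in lymphomas were 20 to 23 when each mouse was left out in turn. Of the 4 scan days with both groups, 3 hold 3 or 4 arrays each, with 1 array in 1 group. There the median differences of the locus windows were -0.22, -0.45 and -0.74. The single window called in mice without lymphoma fell to 0 with normexp, with the deposited log ratio and without dim spots, by limma. The 176 probes called were 69 with normexp and 106 with scan day as a block. Windows with more frequent losses were 3 at a limit of -0.35, against 0.197% of all windows. With normexp the differences of the near and far V sections and of the 1 Mb beyond shrank to -0.42, -0.47 and -0.42. The V part minus the constant and D-J end differed by -0.23 to -0.03 when each mouse was left out. The locus minus the 1 Mb before differed by -0.33 to 0.0172, above 0 only without lymphoma mouse 7 among the left-out mice, and by 0.18 with scan day as a block. The locus minus the 1 Mb beyond kept a difference of 0.10 to 0.13 with any mouse left out and was 0.0199 with probe medians and 0.00624 with normexp. Starts of the distal loss inside the locus numbered 4 lymphomas at penalty factor 6, 1 with normexp, 2 with short stretches passed over and 5 without dark probes, against 7. Deep segments numbered 19 at -0.8, 7 at -1.2, 6 without dark probes and 2 with normexp, against 11. Where no cause is named, the cause was not tested. Probes near background limit what can be read in the middle V section.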
